A study of Bos taurus with 2 samples.

Results

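The genes described here are 9 genes of iron storage and transport, FTH1, FTL, TFRC, TF, SLC11A2, SLC40A1, HMOX1, ACO1 and IREB2, out of 15715 named genes on a bovine expression array. They were taken by gene name alone, as every probe without control status that carries one of these names in the array files, which gave 33 probes of 60 bases among 43652. Messenger RNA was compared between a pellet that the submitters call exosome (small vesicles released by cells) and the whey supernatant left above it. Both came from raw milk of Holstein cows, with no treatment or genotype named, and the pellet was spun at 10000 g for 90 min and washed 2 times. RNA of 3 samples was mixed equally before 100 ng was labelled with the dye Cy3, so each fraction is 1 pool on 1 array. There are no replicates, no test was run, and every difference is between these 2 arrays. The label of the supernatant says that it was taken after ultracentrifugation, and whether the stated speed is right is not settled. Small vesicles are commonly pelleted at higher speeds than the one stated, so what each fraction holds is uncertain.

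Cells take up iron bound to transferrin through the transferrin receptor, move it across membranes with divalent metal transporters, store the surplus in ferritin and release it through ferroportin. The iron regulatory proteins sense iron and bind hairpins in the messenger RNAs of ferritin, the transferrin receptor and others, which blocks translation of some and stabilises others. In milk, much of the iron-binding capacity belongs to lactoferrin, a relative of transferrin that mammary epithelium secretes. All 9 mammary epithelial markers examined, with the casein gene CSN2 and LALBA among them, were detected in the pellet, and 6 of the 9 in the supernatant. Over all named genes the shares detected were 69.4% and 22.9%.

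Detection means that the scanner software marked a probe's signal as well above background. Genes count as detected from 1 such probe upwards. The exosome array detected 58.5% of all probes and the supernatant array 13.1%. Detection began at a signal of 11.3 for exosome and 9.04 for supernatant. Before scaling, the median of the 3376 named genes measured on both arrays was 3.51 higher (log2) in the exosome pellet, an 11.4-fold difference, so differences are given before scaling and relative to that median gene. Over 9 probes with repeat spots, differences had an SD of 0.18 (log2) between spots, against 1.74 between different probes of a gene (533 genes).

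More of the iron genes were detected in the pellet than in the supernatant, as was the case for all named genes. Of the 3 measured on both arrays the ferritin heavy chain differed most. In the pellet 8 of the 9 genes were detected (69.4% of all named genes were), and 3 of 9 in the supernatant (22.9% of all). Those 3 were the ferritin heavy chain FTH1, the ferritin light chain FTL and the iron exporter SLC40A1. SLC11A2, HMOX1, ACO1, IREB2 and TF, 5 of the 9, were detected in the pellet alone, as were 47.5% of all named genes. TFRC was detected on neither array, as were 29.6% of all. At the level of probes, 23 of 33 were detected in the pellet and 6 in the supernatant, and none of the 6 was missing from the pellet. All 33 were single spots, and none was saturated or marked as an outlier.

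**Figure D1:**
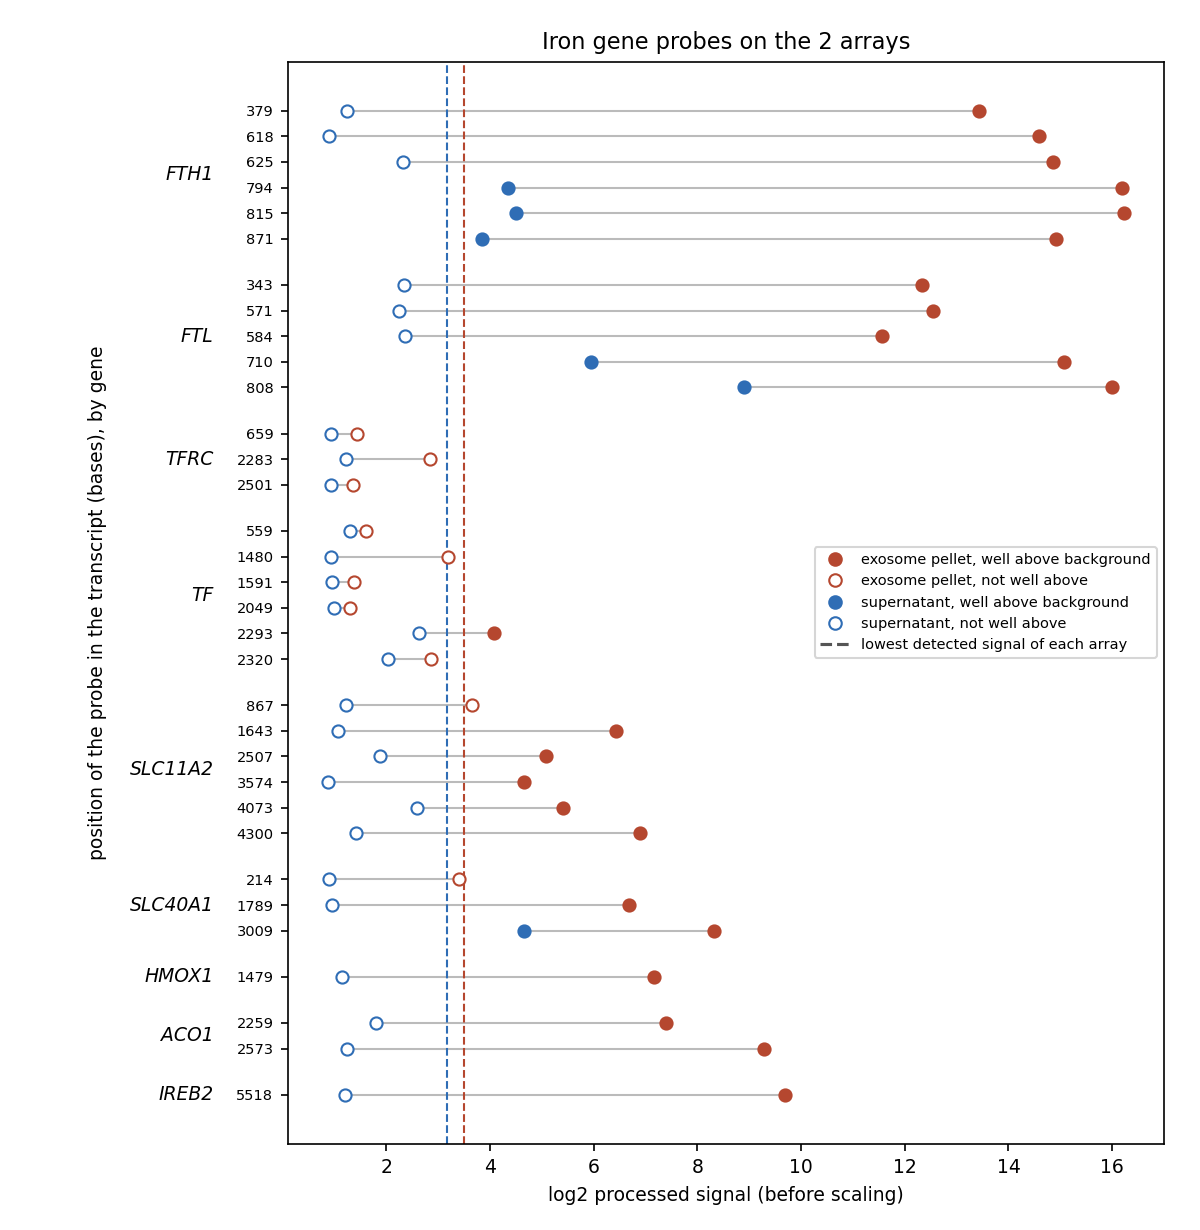
Log2 processed signal before scaling (horizontal axis) of the 33 probes, by gene and by position in the transcript (vertical axis), on the exosome array in red and the supernatant array in blue, with filled points where the signal was well above background and dashed lines at the lowest detected signals of 11.3 and 9.04. All 11 ferritin probes lie far to the right in red, while filled blue points occur on 6 probes only, of FTH1, FTL and SLC40A1. The flag is set spot by spot, so an SLC11A2 probe at 12.5 lies past the red line without it.

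FTH1 encodes the ferritin heavy chain, which oxidises iron as it enters the storage shell. Its 6 probes fell into 3 towards the 5′ end of the transcript, which were not detected in the supernatant, and 3 towards the 3′ end, which were. A pair of the 5′ group is shown because it covers a part of the transcript without a detected signal in the supernatant. It lies on the minus strand of chromosome 29 in build Btau_3.1, at chr29:42118825-42118884 (transcript position 625) and, for the probe at position 618, with a partial placement at chr29:42118487-42118507. On this strand the partial placement lies beyond the probes at positions 794 and 815, which does not match its transcript position. Each of the 3 probes of the 5′ group lists 2 Ensembl transcripts. Capitals mark the longest unbroken run that the pair shares, of 31 bases. After an added c in the probe at position 618 the sequences match again.
FTH1 position 625: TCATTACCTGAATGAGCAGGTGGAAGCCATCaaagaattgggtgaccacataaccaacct
FTH1 position 618: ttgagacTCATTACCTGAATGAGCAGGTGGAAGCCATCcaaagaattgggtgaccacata

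The first probe of the group, at transcript position 379, gave a processed signal of 10999 in the pellet against 2.36 in the supernatant. At position 618 the signals were 24687 and 1.87. At position 625 they were 29902 and 4.98. All 3 supernatant signals lay below the detection limit of 9.04, and their exosome signals were at least 1217-fold, 2731-fold and 3308-fold higher, taking that limit as the supernatant level.

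The 3′ group was measured on both arrays. The probes at positions 794 and 815 overlap by 39 bases at chr29:42118656-42118715 and chr29:42118635-42118694, and the third, at position 871, is placed by the array's design on another chromosome, at chr6:224172-224238. The first 30 bases of the overlap and the last 30 bases of the third probe are given, with the hexamer AATAAA, the usual polyadenylation signal, in capitals.
FTH1 positions 794 and 815: gcagtgcatgcatatttgggttaccttcat
FTH1 position 871: ttcaAATAAAgtaatttggtgcccaaaaaa

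At position 794 the signals were 74776 in the pellet against 20.3 in the supernatant. At position 815 they were 77021 and 22.7. At position 871 they were 31044 and 14.3. The exosome signal was therefore higher by 11.84, 11.73 and 11.08 (log2), with a mean of 11.55 ± 0.41 (SD between 3 probes, which are not replicates), a 3002-fold difference before scaling. Relative to the median gene FTH1 stood 8.04 higher in the exosome pellet, and 16 of the 3376 named genes measured on both arrays had a larger difference. Without the probe placed on chromosome 6 it stood at 8.28. The supernatant signals of these probes were between 1.58 and 2.51 times the lowest detected one. With a filter at 4 times that lowest signal FTH1 was no longer detected in the supernatant and had no difference.

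Whether the 5′ and 3′ probes of FTH1 differed in the size of the difference could not be measured. The lower bounds of the 5′ probes were 10.25, 11.42 and 11.69 (log2), and the 3 measured differences were 11.08 to 11.84. Had the 5′ probes followed the mean difference of the 3′ probes, their supernatant signals would have been 3.66, 8.22 and 9.96, of which only the last is past the detection limit. The supernatant signals read there were lower in each case, but signals below that limit have no reliable order.

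FTL encodes the ferritin light chain, which favours formation of the iron core inside the shell. Its 5 probes showed the same order along the transcript, with the 3 nearest the 5′ end undetected in the supernatant. They lie on the plus strand at chr18:55547458-55547517 (position 343), chr18:55548483-55548542 (position 571) and chr18:55548496-55548555 (position 584). Each lists 3 Ensembl transcripts, against 1 for each of the other FTL probes, so these signals may include related copies. Capitals mark a 44-base run that the last pair shares.
FTL position 343: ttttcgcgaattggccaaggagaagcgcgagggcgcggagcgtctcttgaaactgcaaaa
FTL position 571: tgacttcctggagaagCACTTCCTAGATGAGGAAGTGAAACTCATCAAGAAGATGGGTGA
FTL position 584: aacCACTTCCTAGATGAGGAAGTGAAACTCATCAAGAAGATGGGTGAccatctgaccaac

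The exosome signals at these positions were 5183, 6018 and 3013. In the supernatant the same probes gave 5.08, 4.73 and 5.15, all below the detection limit. The exosome signals were at least 573-fold, 666-fold and 333-fold higher.

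The FTL probes nearest the 3′ end, at chr18:55548622-55548681 (position 710) and chr18:55548720-55548779 (position 808), were detected on both arrays. The second, which gave the brightest supernatant signal of any of the 33 probes, ends as follows, with AATAAA in capitals.
FTL position 808: gaccatatggaaacAATAAAgctttttgca

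At position 710 the signals were 34654 in the pellet against 61.6 in the supernatant, a difference of 9.13 (log2). At position 808 they were 65178 and 477, a difference of 7.09. The mean of 8.11 ± 1.44 (SD between 2 probes) is a 277-fold higher exosome signal before scaling and stands 4.61 above the median gene. Of the 3376 measured genes, 282 had a larger difference. FTL is the only one of the 9 genes with a supernatant signal past 4 times the lowest detected signal.

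The FTL probes differed among themselves. At position 808 the exosome excess was smaller than at every other FTL position, by 2.04 (4.11-fold) against position 710 and by at least 2.07, 2.28 and 1.29 against positions 343, 571 and 584. These gaps are larger than the spot SD of 0.18, while the SD between probes of a gene over the whole array was 1.74. The FTH1 mean exceeded the FTL mean by 3.44 (10.8-fold), with the measured probes at 11.08 to 11.84 for FTH1 and 7.09 to 9.13 for FTL. The size of this gap depended on the processing, with 3.94-fold under normexp background correction, 6.65-fold with the software's weaker detection flag and 24.8-fold from the brightest probe of each gene. The bounds of the 5′ FTL probes (8.38 to 9.38) have no upper limit, so the gap at those positions is not known.

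**Figure D2:**
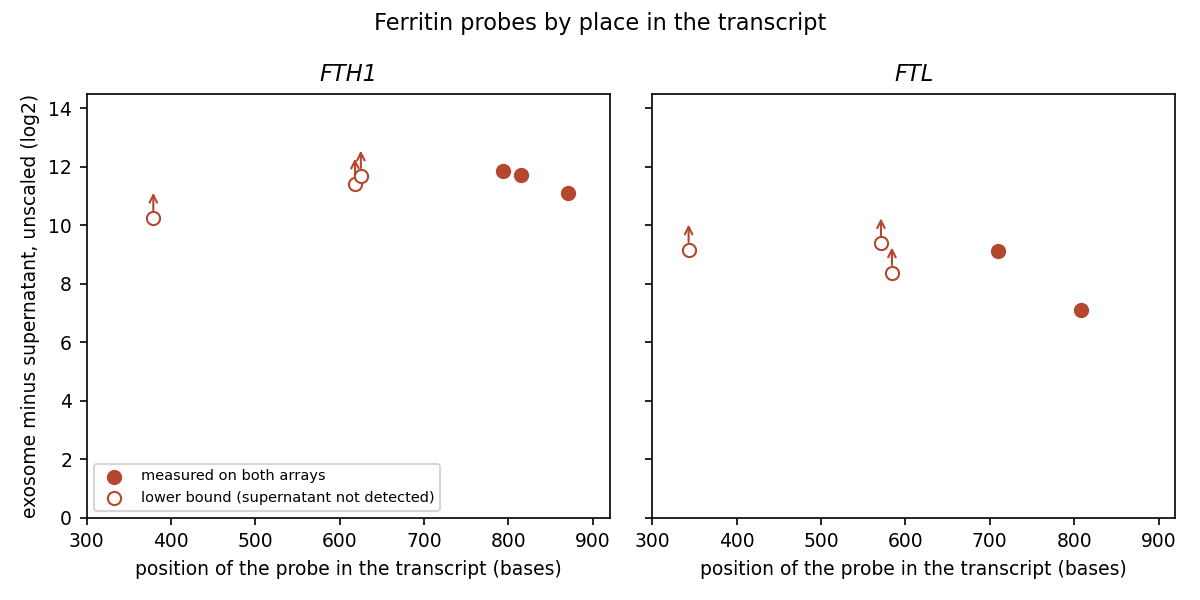
Exosome minus supernatant difference before scaling (log2, vertical axis) of the 6 FTH1 and 5 FTL probes by position in the transcript (bases, horizontal axis), with filled points for probes detected on both arrays and open points with an upward arrow for lower bounds, where the true difference may be anywhere above the point. The 3 measured FTH1 probes lie between 11.08 and 11.84, the FTH1 bounds between 10.25 and 11.69, and the FTL probe at position 808 lies lowest at 7.09.

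Ferritin has many close copies in mammalian genomes, and 6 further probes are described as ferritin without carrying a member's name. In the pellet 4 of them were detected (58.5% of all probes were) and in the supernatant 2 (13.1% of all). A probe described as similar to the ferritin H subunit gave 586 in the pellet and 8.50 in the supernatant. It is placed at chr29:42119013-42119072, between FTH1 probes but on the plus strand, so it need not be a separate copy. A probe of the consensus transcript TC467542, placed on chromosome 3, shares a 41-base run with the FTH1 probe at position 871. It gave 18013 in the pellet against 23.0 in the supernatant, a difference 6.11 above the median gene (log2), so it was on the same side as FTH1 and smaller. A probe of the ferritin light chain-like LOC615291 on chromosome X gave 427 and 12.4, a difference 1.60 above the median gene. The signal of the FTH1 probe at position 871 may therefore include another ferritin copy. The rest of these 6 probes share runs of at most 9 bases with any FTH1 or FTL probe. That does not show whether their transcripts add to the signal of other FTH1 or FTL probes.

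SLC40A1, ferroportin, the exporter through which iron leaves cells, was detected on both arrays by a single probe of 3. The probe at position 214 gave 10.6 in the pellet against 1.85 in the supernatant, neither well above background. At position 1789 the signals were 102 and 1.93, so that the pellet alone was detected, at least 11.3-fold higher. At position 3009, the most 3′ probe, they were 319 and 25.3. The latter pair of probes, on the plus strand at chr2:7147286-7147345 and chr2:7148506-7148565, is shown because it decides whether SLC40A1 was detected in the supernatant. The second is given by its first 30 bases.
SLC40A1 position 1789: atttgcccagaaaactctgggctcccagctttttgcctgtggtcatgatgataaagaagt
SLC40A1 position 3009: ccttgccctaaccattcatgcactttcatg

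The exosome signal of SLC40A1 was 3.65 higher before scaling (12.6-fold), which placed it 0.15 from the median gene, less than the spot SD of 0.18, with 1612 of 3376 genes further to the exosome side. It was 1.91 lower in the exosome pellet after scaling to the 75th percentile of each array (a difference of -1.91), so its direction depended on the scaling. FTH1 and FTL kept theirs, at 5.99 and 2.55 on that scale. Of the 3 measured members, 2 (FTH1 and FTL) exceeded the median gene 2-fold or more, and 0 lay as far below. Over all 3376 measured genes 37.3% exceeded it by as much and 36.6% lay as far below. With 75th percentile scaling these shares were 18.1% and 63.4%, with spike-in scaling 52.9% and 19.4%, and with no scaling 83.4% and 1.3%.

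**Figure D3:**
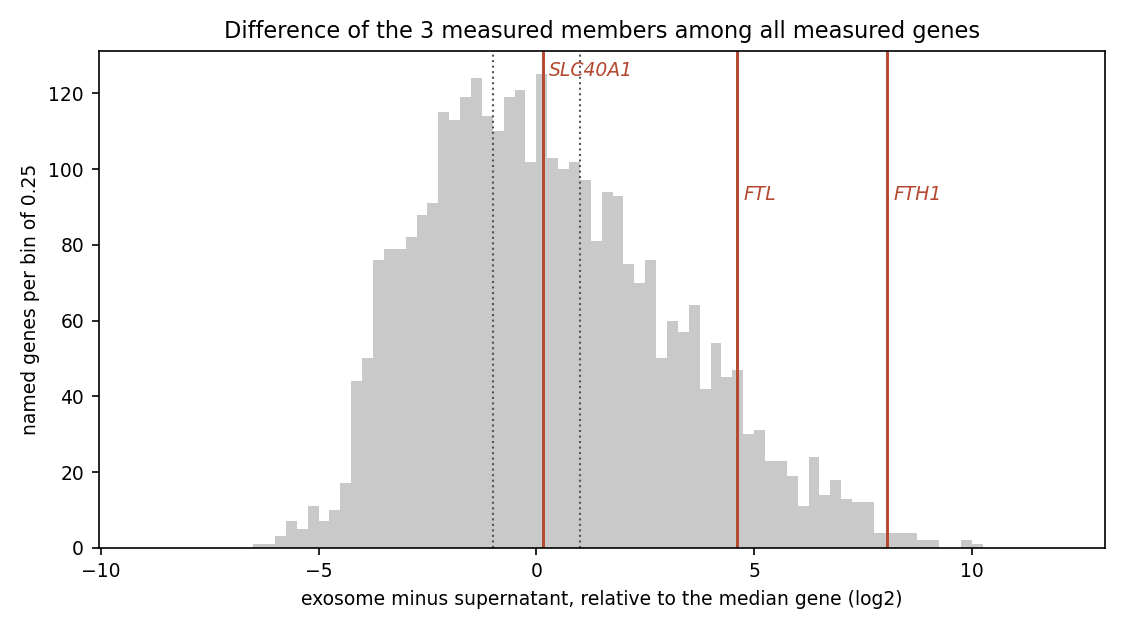
Distribution of the exosome minus supernatant difference relative to the median gene (log2, horizontal axis) over the 3376 named genes measured on both arrays (genes per bin of 0.25, vertical axis), with the 3 measured iron genes as red lines and the 2-fold limits dotted. FTH1 at 8.04 lies in the upper tail, FTL at 4.61 lies lower in that tail and SLC40A1 at 0.15 lies beside the median.

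The iron sensors were detected in the pellet alone. ACO1 is iron regulatory protein 1, which works as a cytosolic aconitase when it holds an iron-sulfur cluster, and IREB2 is iron regulatory protein 2. The ACO1 probes lie on the minus strand at chr8:11708939-11708998 (position 2259) and chr8:11702458-11702517 (position 2573).
ACO1 position 2259: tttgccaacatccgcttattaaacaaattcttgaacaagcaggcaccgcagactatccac
ACO1 position 2573: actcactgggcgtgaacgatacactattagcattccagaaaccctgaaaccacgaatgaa

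At position 2259 ACO1 gave 168 in the pellet against 3.49 in the supernatant. At position 2573 it gave 621 and 2.38. Neither supernatant signal was well above background, and before scaling, the exosome signals were at least 18.6-fold and 68.7-fold higher, 35.7-fold as the average of the log2 bounds. The single IREB2 probe (chr21:30944730-30944789, position 5518) gave 831 and 2.31, at least 92.0-fold higher. Relative to the median gene the bounds were 1.65 for ACO1, as the average, and 3.02 for IREB2 (log2). On the 75th percentile scale the IREB2 bound was 1.94-fold, under the 2-fold call. The ACO1 probe at position 2573 had a bound of 1.45-fold there, and the average bound over both ACO1 probes was under 1.

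HMOX1, the inducible haem oxygenase that frees iron from haem, has a single probe at chr5:79096200-79096259. It gave 144 in the pellet against 2.21 in the supernatant, at least 15.9-fold higher before scaling. Relative to the median gene this bound was 0.48 (log2), under the 2-fold call. Macrophages, which recycle haem iron, carry both HMOX1 and SLC40A1. Of 6 macrophage and monocyte markers on the array, 5 were detected in the pellet and 4 in the supernatant. Summed signals of the brightest probes, detected or not, were 3901 and 101, with MSR1 alone at 2040 in the pellet. Of the 3 markers measured on both arrays, 2 lay at least 2-fold below the median gene and 0 as far above. Their median was -1.20 (log2) against that gene. Over all named genes the shares detected were 69.4% and 22.9%. CD163, the scavenger receptor for haemoglobin, was the marker not detected in the pellet (2.33) and was detected in the supernatant alone, at 10.3. The part of such cells in the HMOX1 and SLC40A1 values was not tested.

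SLC11A2 encodes the divalent metal transporter that carries ferrous iron across the gut border and out of endosomes. It was detected in the pellet by 5 of its 6 probes and in the supernatant by none. From the 5′ to the 3′ end the exosome signals were 12.5 (not well above background), 86.5, 33.7, 25.1, 42.5 and 119. The supernatant signals of the same probes ran from 1.83 to 6.03. Before scaling, the 5 detected probes were at least 9.57-fold, 3.72-fold, 2.78-fold, 4.71-fold and 13.2-fold higher in the pellet. The average of these bounds on the log2 scale was 5.73-fold, which is -0.99 (log2) relative to the median gene. SLC11A2 was therefore not shown to exceed that gene. The 75th percentile of all probes on the exosome array was a signal of 248, above all 6.

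Few probes of the classic transferrin route were detected. TF encodes transferrin, the iron carrier of plasma that the liver secretes, and TFRC its receptor, which growing cells and red cell precursors carry in quantity. Of the 6 TF probes only that at position 2293 was detected, with 17.0 in the exosome pellet against 6.20 in the supernatant. That was at least 1.88-fold higher before scaling and under the 2-fold call, a bound of -2.60 (log2) relative to the median gene. The probe at position 2320 shares 33 bases with it and gave 7.30 and 4.12, neither well above background. The other TF probes gave 2.46 to 9.07 in the exosome pellet and 1.90 to 2.48 in the supernatant. The detected probe lies at bases 75497 to 75556 of an unplaced scaffold and ends as follows, with AATAAA in capitals.
TF position 2293: ggtggcgcctctgcaggacaaAATAAAaat

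The TFRC probes, on the minus strand of chromosome 1, gave 2.69, 7.19 and 2.55 in the exosome pellet. In the supernatant they gave 1.91, 2.35 and 1.90. All 6 values lay below the 99th percentile of the 153 negative control spots of their array, which was 7.85 for exosome and 4.32 for supernatant. With the software's weaker flag, 2 of the 3 TFRC probes counted as detected in the pellet. TFRC messenger RNA was therefore not detectable at this signal, which does not show that it was absent.

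Markers of the cells known for TF and TFRC were partly present. For comparison, 69.4% of all named genes were detected in the pellet and 22.9% in the supernatant. Of 6 hepatocyte markers 4 were detected in the pellet and 2 in the supernatant (summed brightest signals of 936 and 51.3), with ALB, albumin, detected on neither array and AHSG in the supernatant alone. Of 6 erythroid markers 2 were detected on each array (23546 and 1169), HBA (alpha globin, 23456 and 1138) and AHSP. HBB, ALAS2 and SLC4A1 were not well above background on either. Relative to the median gene, HBA stood at 0.86 and AHSP at -1.35 (log2). APOA1, the hepatocyte marker measured on both arrays, stood at 2.29. In these pools fewer cells of a type and less RNA per cell cannot be told apart, and the part of such cells in the TF and TFRC values was not tested.

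Other genes of iron handling were detected at shares near those of all named genes. Of 69 such genes on the array, 52 (75.4%) were detected in the pellet and 11 (15.9%) in the supernatant, against 69.4% and 22.9% of all named genes. All 11 were also detected in the pellet. Among these 11, 6 exceeded the median gene 2-fold or more and 0 lay as far below, with a median of 1.70 (log2), where 37.3% of all measured genes exceeded it by as much. The probes of these genes on the array numbered 149.

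Of the 6 genes of ferritin handling and iron sensing, 5 were detected in the pellet and 3 in the supernatant (69.4% and 22.9% of all named genes). NCOA4, the receptor that carries ferritin to lysosomes for breakdown, gave 15053 in the pellet against 45.2 in the supernatant on the probe measured on both, 4.87 above the median gene. PCBP1, an RNA-binding protein that also delivers iron to ferritin, gave 13300 and 10.6, 6.78 above it. Its relative PCBP2 gave 3832 and 14.7, 4.52 above it. The supernatant values of PCBP1 and PCBP2 came from 1 probe of 3 and 1 of 4 and lay near the lowest detected signal of 9.04. GLRX3, a glutaredoxin of iron-sulfur transfer, was detected in the pellet alone, at least 179-fold higher before scaling. Mitochondrial ferritin, FTMT, was detected on neither array.

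Of the 20 haem genes 15 were detected in the pellet and 2 in the supernatant, against 69.4% and 22.9% of all named genes. HMOX2, the constitutive haem oxygenase, gave 4978 and 13.9 on the probe measured on both, 4.97 above the median gene. Its supernatant signal lay near the lowest detected one of 9.04. FLVCR2, a transporter of the haem exporter family, gave 926 and 58.6, 0.47 above it. ABCG2, ALAS1 (the first enzyme of haem synthesis) and BLVRB (a biliverdin reductase) were detected in the pellet alone, at least 231-fold, 216-fold and 230-fold higher before scaling.

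All 21 genes of mitochondrial iron and of iron-sulfur cluster assembly, mitochondrial or cytosolic, were detected in the pellet and 3 in the supernatant. Of all named genes 69.4% and 22.9% were. ISCA1, a scaffold protein, gave 1797 and 25.3, 2.64 above the median gene. CIAPIN1, of the cytosolic cluster machinery, gave 1903 and 51.4, 1.70 above it, while FDXR, ferredoxin reductase, gave 394 and 47.1, a difference of -0.45 against it. LYRM4 and BOLA3, which take part in cluster assembly, were detected in the pellet alone, at least 449-fold and 370-fold higher before scaling.

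The secreted iron binders were detected in the pellet in 4 cases of 4 (69.4% of all named genes were). Lactoferrin, LTF, gave its brightest signals of 23069 and 11.4 on the same probe, and none of its 5 probes was well above background in the supernatant (224-fold as the average of the 5 log2 bounds). The siderophore binder LCN2 gave 1313 and 60.5, 0.93 above the median gene, and HPX, which binds haem, 1898 and 94.4, 0.82 above it. HP, haptoglobin, gave 15.4 in the pellet and 3.23 in the supernatant on its brightest probe. That was at least 1.71-fold higher before scaling, a bound below the 11.4-fold of the median gene.

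The remaining groups, of uptake, export and hormonal control, are small. Of 10 genes of uptake and reduction 4 were detected in the pellet and none in the supernatant, against 69.4% and 22.9% of all named genes. The 4 were SLC39A8 (3854 in the pellet on its brightest probe), STEAP3 (259), SLC39A14 (111) and STEAP2 (16.6). The ferroxidases CP, HEPH and HEPHL1, which oxidise iron as it leaves cells beside ferroportin, were detected on neither array, as were 29.6% of all named genes. Of 5 genes of systemic control, HAMP (hepcidin, the hormone that closes ferroportin) gave 53.4 and 2.68 and HFE2 (hemojuvelin) 35.4 and 5.36, both detected in the pellet alone. NEO1 was detected on both arrays at 83.6 and 11.98, a difference of -0.71 against the median gene. Its supernatant signal lay near the lowest detected one of 9.04.

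**Figure D4:**
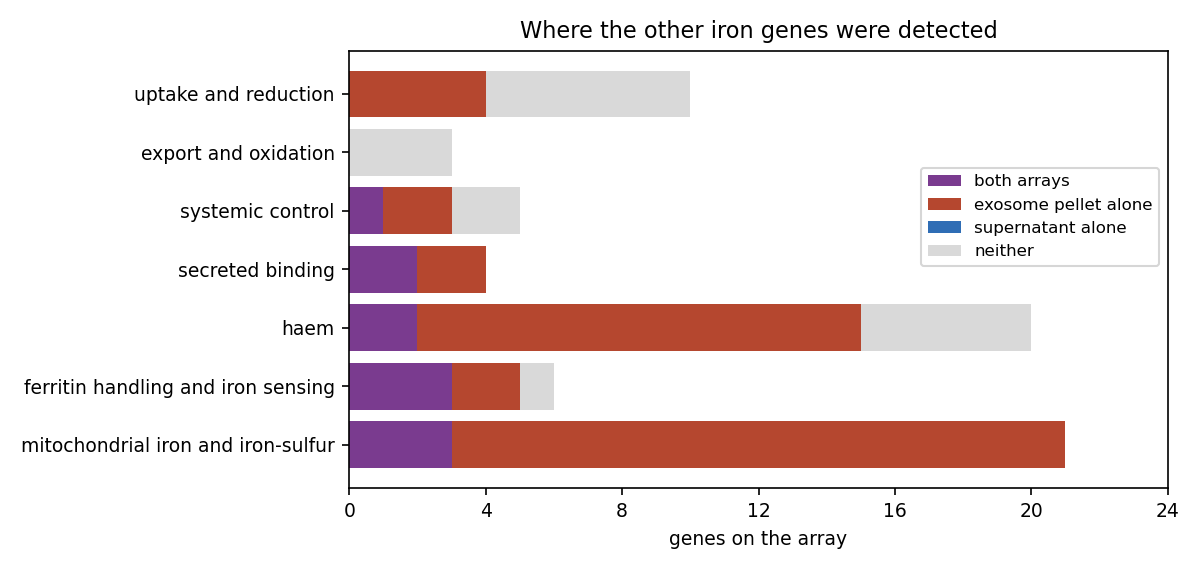
Number of genes (horizontal axis) in each of 7 groups of other iron genes (vertical axis) detected on both arrays, on the exosome array alone, on the supernatant array alone (none) or on neither. The group of mitochondrial iron and iron-sulfur genes is detected in full in the pellet with 21 of 21 genes, against 69.4% of all named genes. The ferroxidases of the export and oxidation group are detected on neither array, as are 29.6% of all named genes.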

How the data were processed

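The authors deposited 1-colour Agilent scanner output, from which the processed intensity of each spot was used. Per the file headers, Feature Extraction 10.7.3.1 subtracted background and detrended each array, and no scaling between arrays is recorded there. In the authors' deposited table the values are log2 of those signals (equal within 0.001 for all 43652 probes), with medians of 4.81 for exosome and 1.32 for supernatant. Outlier and control spots were left out and spots of a probe averaged as log2. Gene differences average the probes detected on both arrays and are given relative to the median of all 3376 named genes so measured. For bounds, the dim side was set to its array's lowest detected signal unless its own signal was higher, and a gene's bound is the average of the log2 bounds over its probes detected in the pellet, so single probes can lie below it. Gene names are those of the files, and a probe with only an accession, LOC or consensus name counted as unnamed (10182 probes). The reference gene table (assembly ARS-UCD2.0) held the accession of 8 members and the symbol of all 9, and its coordinates were not used. Coordinates are in HGSC Btau_3.1 as the files give them, transcript positions are the files' own, and exons and untranslated regions were not analysed here. The calculation was tested on simulated data with less noise between probes than the SD of 1.74 seen here. That test checked the arithmetic and not the precision. Only 2 arrays limit the precision, so no test was run. The array names place both on the same slide. The members and the lists were chosen with earlier results of these data known. Named among other iron genes are the 4 brightest detected in the pellet per group and every gene detected in the supernatant. FTMT, CP, HEPH and HEPHL1 fall outside that rule and were chosen after their values were seen. Some genes under the rule and 1 probe sequence are not reported here. The Python 3.11.15, pandas 2.3.3 and, for normexp, limma 3.58.1 packages were used.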

Additional observations from a re-analysis of the deposited data

How the results depend on the processing

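FTH1 and FTL stood to the exosome side of the scale's zero under every alternative that gave a value (15 for FTH1, 16 for FTL), and SLC40A1 did not. Moves are judged against the spot SD of 0.18. In the order FTH1, FTL and SLC40A1, the differences were 5.99, 2.55 and -1.91 with 75th percentile scaling, 11.55, 8.11 and 3.65 with no scaling, 9.28, 5.84 and 1.38 with spike-in scaling, and 6.10, 2.66 and -1.80 with the 75th percentile over probes detected on both arrays. They were 7.22, 5.24 and -0.084 with normexp background correction (offset 50), 9.27, 6.23 and 1.05 with no filter on dim probes, and 7.33, 3.34 and -0.099 with the most 3′ probe per gene, a choice made after seeing the data. Quantile normalization gave 7.82 for FTH1 and 4.27 for FTL, the weaker flag 8.47 and 5.74, and the brightest probe 3.47 for FTL. Leaving out the FTH1 probe placed on chromosome 6, also chosen after seeing the data, gave 8.28. The stricter filter left no value for FTH1 or SLC40A1. Detection depended on the rule. In the pellet 5 of the 9 genes were detected where a gene needed each of its probes detected (47.9% of all named genes). In the supernatant the count was 6 with the weaker flag, where 66.5% of all named genes were detected, 1 (FTL) with the stricter filter (8.53% of all) and 0 where each probe was needed (5.82%). Members at least 2-fold above the median gene numbered 6 of 9 with no filter, where supernatant signals at background enter and 40.9% of all genes did so, and 1 with the stricter filter, which left 1 member measured (34% of all). The other alternatives kept these counts within 1.5 times. The 75th percentile, spike-in and no-scaling settings change only a constant, so each moved all 3 genes by the same amount. The cause of the other moves was not tested. The supernatant array's low signals limit all of this: its 75th percentile of 5.24 lay below its lowest detected signal of 9.04.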

Other observations

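The order along the transcript seen in FTH1, FTL and SLC40A1, with supernatant detection at the 3′ end, was set beside the rest of the array after these values were seen. Among named genes with 2 or more probes of a single accession detected in the pellet, 1626 had some but not all of those probes detected in the supernatant. The most 3′ of these probes was detected there in 58.3% of the genes and the most 5′ in 32.3%. In FTH1, FTL and SLC40A1 the most 3′ was detected and the most 5′ was not. In each of these genes the probes detected in the supernatant also gave higher exosome signals than the gene's other probes. At the gene's measured difference the SLC40A1 probe at position 1789 would have given 8.10 in the supernatant, below the detection limit of 9.04. The part of probe brightness in this order was not tested.

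The hexamer AATAAA, searched as the probe sequences are written, occurs in 4 of the 33 member probes, 1 of FTH1, 1 of FTL and 2 of TF, and in 9.35% of all probes. Its reverse complement TTTATT occurs in 1 member probe and in 3.46% of all. Of all probes with AATAAA 22.7% were detected in the supernatant and 70.6% in the pellet, against 13.1% and 58.5% of all probes.

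Runs of 5 G occur in 2.88% of all probes, of which 37.7% were detected in the supernatant. None of the 33 member probes has such a run, and none has a run of 5 C. The 6 member probes detected in the supernatant had a median GC content of 45%, the same as all 33 and as all probes of the array.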
